A study of Mus musculus with 4 samples.

Results

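Polycomb repressive complex 2 (PRC2) is described here through the mRNA of 10 of its core and accessory subunits, Ezh1, Ezh2, Eed, Suz12, Rbbp4, Rbbp7, Jarid2, Mtf2, Phf19 and Phf1. They were chosen by gene symbol, and all 10 were found among the 20735 gene IDs of the deposited tables, each under 1 ID. The samples were germinal centre B cells, the activated B cells that divide and mutate their antibody genes in lymphoid follicles, sorted from spleens of C57BL/6 mice, 8 weeks old, after immunization with sheep red blood cells. The groups were Nsd2 wild type (wt, 2 libraries, wt 1 and wt 2) and Nsd2 knockout (ko, 2 libraries, ko 1 and ko 2). Neither the allele, nor the cells in which it was deleted, nor the number of mice behind each group is given in the labels. The p-values therefore measure the spread between these libraries, which may be technical.

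PRC2 places methyl groups on lysine 27 of histone H3 (H3K27), a mark of silenced genes. Ezh2 or Ezh1 carries the catalytic site, Eed and Suz12 hold the enzyme in its active form, and Rbbp4 or Rbbp7 binds histones. A complex then carries either a Polycomb-like protein (Mtf2, Phf19 or Phf1) or Jarid2 with Aebp2. Germinal centre B cells are known for high Ezh2, which they need to form and which holds back differentiation and cell cycle inhibitor genes. Nsd2 dimethylates lysine 36 of the same histone, a mark that hinders PRC2 on the tail that carries it, and the design compares transcripts of germinal centre B cells that have or lack it.

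Values are FPKM as deposited, the fragments of a gene scaled by its length and by the mapped fragments of the library, so levels of different genes can be set side by side. Differences are ko minus wt on the log2(FPKM + 1) scale, with the standard error (SE) and a Benjamini-Hochberg adjusted p (limma), called below 0.05. The adjustment runs over the 10883 genes whose mean reached 1 FPKM, and all 10 subunits passed that filter. For a single value, 2 libraries against 2 allow no exact permutation p under 0.333 (two-sided).

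Nsd2 mRNA, listed as Whsc1, was 76.9 and 81.4 FPKM in wt, against 31.4 and 34.1 in ko. It fell by 1.25 ± 0.05 on the log2 scale (SE, limma adjusted p = 0.000353), so the library labels held, and transcript of the gene remained in ko. Estimated from the spacing of low FPKM values, wt 2 had 94.3%, ko 1 75.8% and ko 2 77.2% of the depth of wt 1. The B cell marker Ms4a1 stood at 570 to 602 FPKM over the 4 libraries, and the summed 9 germinal centre B cell markers at 1787 and 1781 in wt, against 1798 and 1810 in ko. Some other lists moved with genotype. The summed naive B cell markers were at 242 and 239 FPKM in wt, against 288 and 285 in ko, with 5 of 8 higher in ko and none lower by the test (over all tested genes 6.66% were higher and 6.2% lower). By sign 6 of the 8 naive markers lay above 0 and 2 below. Macrophage and monocyte markers reached 7.58 and 7.03 in wt, against 11.1 and 12.2 in ko, and none of the 9 was at 0 anywhere. Lyz2 rose, 1 of 3 tested, from 0.33 and 0.61 FPKM in wt to 1.59 and 1.64 in ko. Its mean reached the filter only through ko, so its being tested depended on the group where it was high. T cell markers summed to 37.5 and 37.0 in wt, against 41.4 and 45.5 in ko, nearly all of it Lck. Cd3e reached 0.19 FPKM at most and was at 0 in wt 1. Several T cell markers besides Lck, Cd3e, Trbc1 and Trbc2 among them, were also higher in both ko libraries. They reached at most 0.73 FPKM (Trbc1 in ko 1), and the rest overlapped between genotypes. The sums of red cell and neutrophil markers overlapped between genotypes. Red cell markers summed to 20.8 and 24.2 in wt, against 24.5 and 24.0 in ko, plasma cell markers to 668 and 669 and to 664 and 663, and neutrophil markers to at most 0.38. Among 15 tested genes of stress and the immediate early response, which can follow handling, 6 rose and none fell, against the same 6.66% and 6.2%. The 6 include a gene with a wt mean of 0.956 FPKM, which passed the filter only through ko. The part of these lists in the results on PRC2 was not tested, and in bulk RNA fewer cells of a type and less RNA per cell cannot be told apart.

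In wild type 7 of the subunits stood at 56.9 FPKM or higher and 3 at 8.00 FPKM or lower. Rbbp7 stood highest, at 188 and 190 FPKM, above 96.9% of tested genes. Ezh2 followed at 122 and 124, Rbbp4 at 111 and 113 and Mtf2 at 112 and 109. Rbbp4 and Mtf2 overlapped and did not differ beyond their spread. Suz12 at 81.0 and 82.7, Eed at 66.6 and 70.4 and Phf19 at 59.0 and 56.9 FPKM were each set apart from their neighbours in the order. Jarid2 was 7.40 and 7.44, Ezh1 6.00 and 8.00 and Phf1 6.37 and 6.61 FPKM. The wide range of Ezh1 covered both others, while Jarid2 lay above Phf1, and the 3 lay at the 30.6th to 33.5th percentile of tested genes. When the ko libraries were added, Ezh2 and Rbbp4 also overlapped, with 115 FPKM of each in ko 2, and so did Jarid2 and Phf1, with 7.91 FPKM of each in ko 2.

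**Figure D1:**
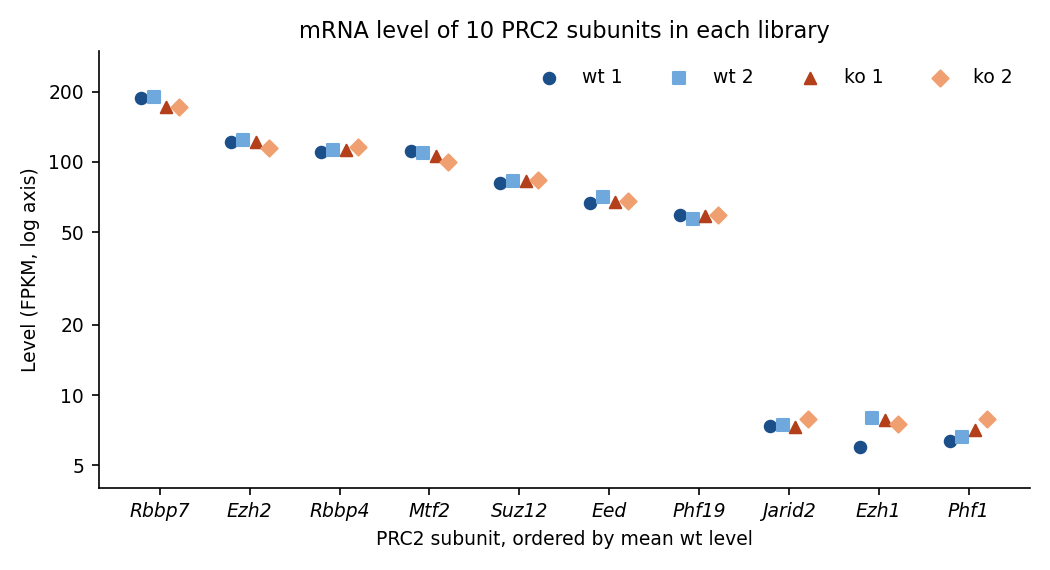
Level of each of the 10 PRC2 subunits in each library (vertical axis, FPKM on a log scale; horizontal axis, genes ordered by mean wt level; 1 point per library). The 7 genes on the left lie above 56 FPKM and Jarid2, Ezh1 and Phf1 at 8.00 FPKM or lower, and the ko points of Rbbp7 lie below its wt points.

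The high and the low genes were set beside the sequence at their promoters, because Ezh2, Eed and Suz12 are textbook targets of E2F factors, the activators of S-phase genes. In RefSeq promoters (build GRCm38.p6, 250 bases before to 50 after a start), all 10 subunits had a window and 12 windows were found. The 4 words TTTCCCGC, TTTCGCGC, TTTGCCGC and TTTGGCGC, the core of the E2F consensus, were searched on both strands. Ezh2, Suz12 and Phf19 held 1 match each and the other 7 subunits none. A match was in 2.26% of all 32851 windows and in 4.95% of those with at least 17 CpG. That is the lowest number in the richest window of any subunit. The windows of Ezh2, Suz12 and Phf19 held 31, 41 and 38 CpG, so this background is not matched to them. The percentages are shares of windows, while a subunit counts with a match in any window. The matches lie 5′ to 3′ on the gene's strand as follows, with the matching word or its reverse complement in capitals.
Ezh2 chr6:47595009-47595038, minus strand, bases -8 to 22 from the start: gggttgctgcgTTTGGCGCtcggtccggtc
Suz12 chr11:79992861-79992920, plus strand, bases -245 to -186: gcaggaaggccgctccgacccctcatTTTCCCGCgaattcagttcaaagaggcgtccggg
Phf19 chr2:34914151-34914210, minus strand, bases -234 to -175: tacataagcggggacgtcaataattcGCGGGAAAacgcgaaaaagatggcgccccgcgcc
The match of Ezh2 begins at base 4 of the transcript, that of Suz12 at base -219 and that of Phf19 at base -208. All 3 genes are among the 7 of high level, and none of Jarid2, Ezh1 and Phf1 had a match. Eed, Rbbp4, Rbbp7 and Mtf2, also of high level, had none either, and a tie between match and level was not tested. A match is a run of letters in a window and was not tested for binding.

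Between genotypes 1 of the 10 subunits passed the test, Rbbp7, which fell. Of all tested genes 12.9% were called, 6.66% higher and 6.2% lower in ko, so 1 of 10 lies near that background. In 4 subunits (Rbbp7, Mtf2, Ezh2 and Phf1) both ko values were on the same side of the wt values, against 61.2% of all tested genes. The median difference of the 10 was 0.02 and their median absolute difference 0.04, against 0.01 and 0.10 over all tested genes. Summed over the 10 subunits the level was 759 and 769 FPKM in wt, against 743 and 736 in ko.

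**Figure D2:**
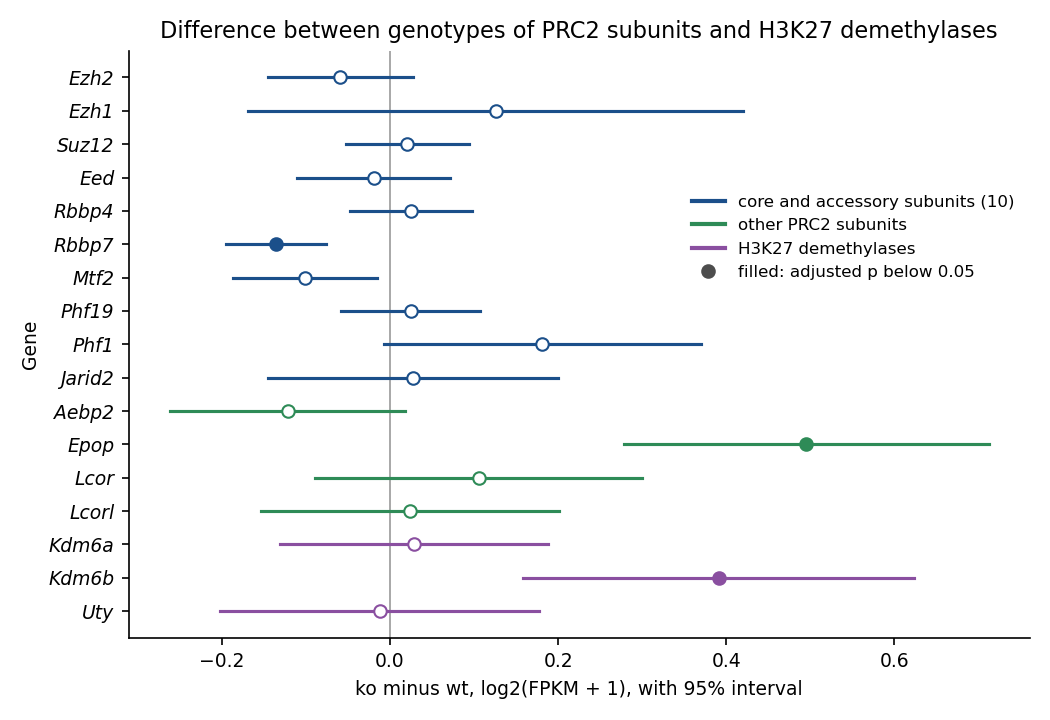
Difference between ko and wt on the log2(FPKM + 1) scale with its 95% interval from limma (horizontal axis) for PRC2 subunits and H3K27 demethylases (vertical axis); filled points passed an adjusted p of 0.05. Rbbp7 lies below 0, Epop and Kdm6b above, and the intervals of Ezh2, Suz12, Eed, Rbbp4 and Phf19 lie within 0.15 of 0.

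The catalytic subunits did not pass. Ezh2 (chr6:47530139-47595341) was 122 and 124 FPKM in wt, against 122 and 115 in ko. The groups did not overlap, but ko 1 lay within 1 FPKM of wt 1, and ko 2 was the low library. The difference was -0.06 ± 0.04 (SE) with a 95% interval of -0.15 to 0.03 (limma adjusted p = 0.305), and it was -0.02 without ko 2 and -0.01 with a trend on GC content removed. Ezh1 (chr11:101191115-101226463), the paralogue of less dividing cells, was 6.00 and 8.00 FPKM in wt, against 7.84 and 7.48 in ko, so both ko libraries lay between the wt libraries. Its difference was 0.13 ± 0.12 (interval -0.17 to 0.42, adjusted p = 0.523), and wt 1 decided the sign: without it the difference was -0.06. Ezh1 made up 4.68% and 6.06% of the summed Ezh1 and Ezh2 signal in wt and 6.05% and 6.12% in ko. Ezh2 therefore gave over 93% of the catalytic subunit mRNA in every library, and wt 1 alone held the lower Ezh1 share.

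Neither scaffold subunit passed. Suz12 (chr11:79993106-80034123) was 81.0 and 82.7 FPKM in wt, against 82.6 and 83.5 in ko, with a difference of 0.02 ± 0.03 (interval -0.05 to 0.09, adjusted p = 0.680). Eed (chr7:89954654-89980983), the subunit that reads trimethylated H3K27, was 66.6 and 70.4 in wt, against 67.1 and 68.1 in ko, both ko values within the wt range (-0.02 ± 0.04, interval -0.11 to 0.07, adjusted p = 0.764). Relative to Suz12, the Eed level was 0.823 and 0.851 in wt, against 0.813 and 0.815 in ko, and that of Ezh1 and Ezh2 together 1.58 and 1.60 in wt, against 1.57 and 1.46 in ko. The intervals leave room for a change in either scaffold and do not show that there was none.

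Of the histone-binding subunits Rbbp7 passed and Rbbp4 did not, and the difference between their changes was tested only through their shares. Rbbp7 (ENSMUSG00000031353, chrX:162760402-162779092, plus strand) was 188 and 190 FPKM in wt, against 173 and 172 in ko, with both ko libraries below both wt libraries and little spread within a group. It fell by 0.14 ± 0.02 (SE, interval -0.20 to -0.08, limma adjusted p = 0.0224), and its FPKM fell by 9.04%. The size of the difference lay at the 62.4th percentile of absolute differences among tested genes. The call was lost when any one library was left out (adjusted p = 0.0666 to 0.0889, difference -0.14 to -0.13), without a filter on low values (0.091) and without a trend of spread on expression (0.129). Rbbp4 (chr4:129307100-129335370, minus strand), its close paralogue, was 111 and 113 in wt, against 112 and 115 in ko (0.02 ± 0.03, interval -0.05 to 0.10, adjusted p = 0.612). The share of Rbbp7 in the summed pair was 63.0% and 62.7% in wt and 60.6% and 59.8% in ko. That share does not depend on scaling between libraries, and its groups did not overlap (exact permutation p = 0.333, two-sided, the smallest possible here).

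The transcripts were compared, since reads of paralogues can be mixed. No run of 50 bases of the transcript with the longest coding sequence was common to Rbbp4 and Rbbp7, and the longest run they shared had 20 bases, shown in capitals within 50 bases of each GENCODE M21 transcript.
Rbbp4, bases 486 to 535: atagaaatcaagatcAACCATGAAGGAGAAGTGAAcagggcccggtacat
Rbbp7, bases 636 to 685: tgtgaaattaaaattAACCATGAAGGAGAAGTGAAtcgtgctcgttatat
Of the 50-base words of Rbbp7, 9.38% were also in the processed pseudogene Gm6382, at 0 in 3 libraries and 0.06 FPKM in ko 1, and 5.70% lay on the opposite strand of Txlng, at 7.36, 7.28, 8.03 and 7.26 FPKM. Both stood far below Rbbp7. Of the words of Rbbp4, 17.2% were shared with the opposite strand of Gm26722, at 15.4 to 17.2 FPKM, and 15.8% with that of Sync, which did not exceed 0.024 FPKM. Whether counting used strand is not stated, so reads of such overlaps cannot be assigned.

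The promoters of the paralogues were compared for the CCAAT box, the site of NF-Y, which is common at cell cycle promoters. Bases -150 to -1 from each start are shown with the box, here in its reverse complement ATTGG, in capitals (GRCm38.p6).
Rbbp7 chrX:162760222-162760371, plus strand: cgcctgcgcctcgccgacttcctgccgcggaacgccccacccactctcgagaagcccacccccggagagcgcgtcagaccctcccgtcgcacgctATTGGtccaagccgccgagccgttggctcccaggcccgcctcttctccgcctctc
Rbbp4 chr4:129335371-129335520, minus strand: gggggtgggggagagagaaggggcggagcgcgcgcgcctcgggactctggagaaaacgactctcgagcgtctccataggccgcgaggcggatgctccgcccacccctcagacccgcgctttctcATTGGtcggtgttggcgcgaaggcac
Both held a CCAAT box on the minus strand of the gene, at bases -55 to -51 in Rbbp7 and -26 to -22 in Rbbp4, and Rbbp7 held a second, on the plus strand, at bases -1 to 4. CCAAT was found on either strand in 7 of the 10 subunits (Eed, Ezh2, Jarid2, Mtf2, Rbbp4, Rbbp7 and Suz12). It was in 37.4% of all windows and 34.1% of those with at least 17 CpG. These are shares of windows, while a subunit counts with a match in any window, and Jarid2 and Mtf2 had 2 each. The matches of Mtf2 lay in its window with 2 CpG and none in that with 30.

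The 3 tested genes whose pattern over the 4 libraries was most like that of Rbbp7, by distance of log2 deviations from their own mean, were Phtf2, Cat and Mms19, at distances of 0.0018, 0.0032 and 0.010. Phtf2 was 19.4 and 19.6 FPKM in wt, against 17.7 and 17.6 in ko and Mms19 21.9 and 22.2 in wt, against 20.1 and 19.8 in ko. Cat, which encodes catalase, was 111 and 113 FPKM in wt, against 102 and 102 in ko. The differences of Phtf2, Cat and Mms19 were -0.14, -0.13 and -0.13. Only Cat was called (limma adjusted p = 0.0983, 0.0305 and 0.0966). Over 4 libraries a likeness of this kind is common, with 260 of 8187 candidate genes within 0.05 of Rbbp7. Of 20 genes of replication and division, 7 fell, none rose and 13 did not pass, with a median difference of -0.10 over the 20 (6.2% of all tested genes fell). Pcna, the replication clamp, was 375 and 375 FPKM in wt, against 332 and 335 in ko and fell by 0.17 (limma adjusted p = 0.0109). Ezh2, Eed and Suz12 did not pass either, at differences of -0.06, -0.02 and 0.02. Whether they differ from the 20 genes was not tested.

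The Polycomb-like subunits, which bind CpG-rich DNA and bring PRC2 to it, did not pass. Mtf2 (chr5:108065674-108109004), the most abundant, was 112 and 109 FPKM in wt, against 106 and 100 in ko. Both ko libraries were below both wt libraries, and the difference was -0.10 ± 0.04 (SE, interval -0.19 to -0.02, limma adjusted p = 0.110). It was -0.06 both without ko 2 and with a trend on GC content removed. The interval is for 1 gene and leaves out 0, while the adjustment over all genes did not reach the threshold. Phf19 (chr2:34893757-34914026) was 59.0 and 56.9 in wt, against 58.8 and 59.0 in ko (0.02 ± 0.03, interval -0.06 to 0.11, adjusted p = 0.668), with the ko libraries inside or next to the wt range. Phf1 (chr17:26933052-26937908) was 6.37 and 6.61 in wt, against 7.09 and 7.91 in ko, higher in both ko libraries (0.18 ± 0.08, interval -0.01 to 0.37, adjusted p = 0.168). Its difference was 0.11 without ko 2 and 0.09 with the GC trend removed.

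Of the words of Phf1, 17.9% lie on the opposite strand of Cuta, which was 29.9 and 28.6 FPKM in wt, against 32.2 and 36.1 in ko. Cuta was above Phf1 in every library, and, as for Phf1, both ko libraries lay above both wt libraries, with ko 2 highest. Its difference was 0.21 (limma adjusted p = 0.0675). The part of Cuta reads in the values of Phf1 was not tested. Mtf2 shared 8.65% of its words with the opposite strand of Tmed5, at 55.1 to 62.4 FPKM and highest in wt 1. Phf19 shared none with another gene.

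Within the summed Polycomb-like signal Mtf2 gave 63.1% and 63.3% in wt and 61.6% and 59.9% in ko. Phf19 gave 33.3% and 32.9% in wt and 34.3% and 35.3% in ko, and Phf1 3.60% and 3.82% in wt and 4.13% and 4.73% in ko. The groups overlapped for none of the 3 shares, and the order Mtf2, Phf19, Phf1 was the same in every library. The exact permutation p was 0.333 for each, the smallest possible. Without ko 2 the difference in share was -1.56 percentage points for Mtf2, against -2.39 with it, and 0.417 for Phf1, against 0.72. The sum was 177 and 173 FPKM in wt, against 172 and 167 in ko.

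**Figure D3:**
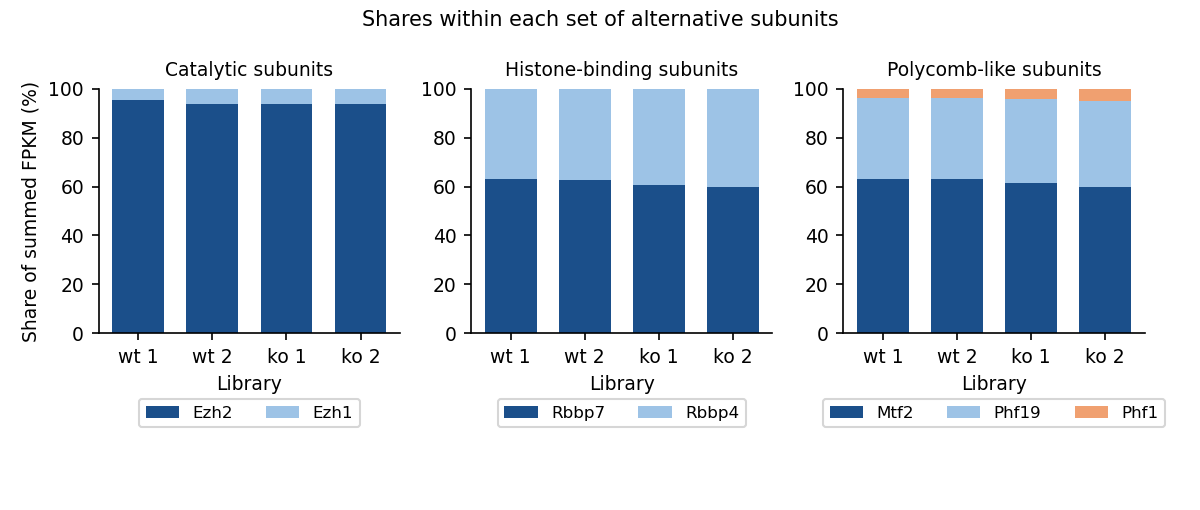
Share of summed FPKM (vertical axis, %) within the catalytic, histone-binding and Polycomb-like subunits in each library (horizontal axis, 1 bar per library). Ezh2 gives over 93% of its pair in each library, Rbbp7 goes from 62.9% in wt to 60.2% in ko on average and Mtf2 from 63.2% to 60.8%.

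Jarid2, which guides PRC2 to sites marked by PRC1, and Aebp2 mark the alternative form of the complex. Jarid2 (chr13:44729474-44921643) was 7.40 and 7.44 FPKM in wt, against 7.26 and 7.91 in ko, with ko 1 below and ko 2 above both wt libraries (0.03 ± 0.07, interval -0.15 to 0.20, adjusted p = 0.826). Aebp2 was 32.4 and 34.3 in wt, against 32.1 and 29.1 in ko (-0.12 ± 0.06, adjusted p = 0.205), with a difference of -0.05 without ko 2 and -0.08 with the GC trend removed. Relative to Suz12, Jarid2 and Aebp2 together stood at 0.49 and 0.50 in wt, against 0.48 and 0.44 in ko, and the Polycomb-like sum at 2.18 and 2.09 in wt, against 2.08 and 2.00 in ko. In every library the Polycomb-like sum was the larger one.

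Of the 5 further PRC2 subunits that were looked up, 4 were listed and tested, and 1 of the 4 rose and none fell. It was Epop, an accessory subunit of the Polycomb-like form that links PRC2 to elongin, listed as E130012A19Rik (ENSMUSG00000043439, chr11:97627389-97629702, minus strand). Its level was 4.17 and 3.67 FPKM in wt, against 5.70 and 6.16 in ko, with no overlap. It rose by 0.50 ± 0.09 (SE, interval 0.28 to 0.71, limma adjusted p = 0.0225), 51.3% higher in ko, at the 96.9th percentile of absolute differences. The background of calls in this direction was 6.66% of tested genes. The call was lost when any one library was left out (adjusted p = 0.0502 to 0.087, difference 0.42 to 0.57) and without a filter on low values (0.116). Lcor and Lcorl, whose loci also encode the PALI subunits, were 4.11 and 4.34 in wt, against 4.53 and 4.70 in ko, and 7.97 and 8.79 in wt, against 8.31 and 8.74 in ko (adjusted p = 0.416 and 0.850). Ezhip, an inhibitor of PRC2 known from germ cells, was not listed.

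The enzymes that remove H3K27 methylation were Kdm6a, Kdm6b and the Y-linked Uty, of which 1 rose and none fell (6.66% of all tested genes rose). Kdm6b, the inducible demethylase, was 3.23 and 3.14 FPKM in wt, against 4.15 and 4.85 in ko. It rose by 0.39 ± 0.10 (limma adjusted p = 0.0477), next to the threshold. Adjusted p was 0.0628 to 0.161 when a library was left out, 0.0506 with median-of-ratios scaling, 0.0736 with a trend on GC content removed, 0.168 without a filter and 0.0626 without a trend of spread, so the call held in 2 of 11 alternatives. Kdm6a was 15.8 and 16.7 in wt, against 15.7 and 17.5 in ko, and Uty 8.08 and 7.24 in wt, against 7.82 and 7.34 in ko, both overlapping (adjusted p = 0.806 and 0.928).

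Rbbp4, Rbbp7 or both also belong to other histone-binding complexes. These are NuRD and SIN3 (deacetylation), CAF-1 (histone deposition at replication), NURF (remodelling) and, for Rbbp7, the HAT1 acetyltransferase. Of 23 partners 22 were listed and 21 tested, and 2 rose and 1 fell, so 3 of 21 were called, against 12.9% of all genes. The 1 that fell was Hat1, which acetylates new histone H4 together with Rbbp7. It was 92.1 and 89.9 FPKM in wt, against 81.0 and 77.8 in ko, below both wt libraries in each ko library, and fell by 0.19 ± 0.03 (SE, limma adjusted p = 0.0205). Without wt 1 or ko 2 its adjusted p was 0.0805 and 0.0793, and without wt 2 or ko 1 the call held. It was also lost without a filter (0.101) and without a trend of spread (0.0889). Hat1 and Rbbp7 were thus both called lower in ko, as were 6.2% of all tested genes, and a link between them was not tested.

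The partners that rose were in the deacetylase complexes. Hdac1, the deacetylase of NuRD and SIN3, was 132 and 131 FPKM in wt, against 143 and 147 in ko (0.14 ± 0.03, adjusted p = 0.031), and Mta2, a NuRD scaffold, 112 and 114 in wt, against 122 and 125 in ko (0.12 ± 0.03, adjusted p = 0.0379). Both lost the call when any one library was left out (adjusted p = 0.0632 to 0.123 and 0.0884 to 0.142). The calls were also lost with quantile normalization (0.0565 and 0.0675), the replicate block (0.0515 and 0.057), no filter (0.108 for each) and no trend of spread (0.138 and 0.157). Hdac2, the paralogue of Hdac1, was 39.9 and 38.7 in wt, against 36.4 and 34.2 in ko (-0.15 ± 0.05, adjusted p = 0.0759). Hdac1 and Hdac2 thus lay on opposite sides of 0. Mbd3 of NuRD, Sin3a of SIN3 and Chaf1b of CAF-1 lay at -0.11, -0.12 and -0.14 and missed the threshold (adjusted p = 0.0666, 0.0922 and 0.0769). Mbd3 and Chaf1b passed it with a trend on GC content removed (0.0152 and 0.0441). The median difference of the 21 was -0.01, with 10 above and 11 below 0.

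**Figure D4:**
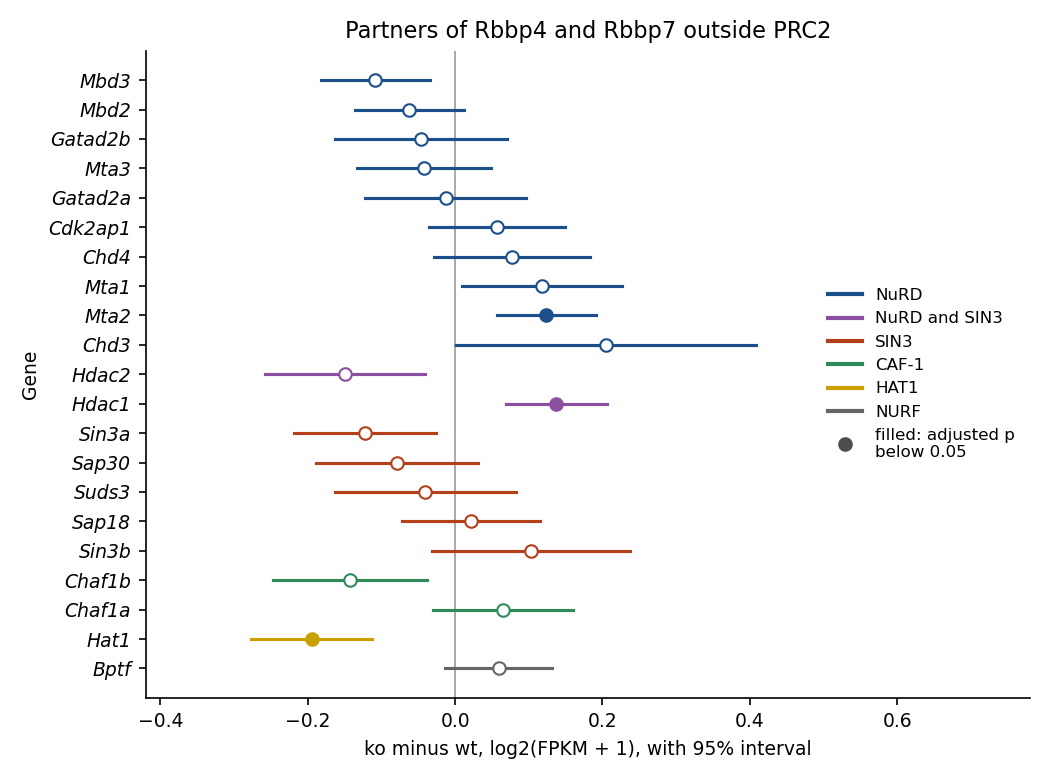
Difference between ko and wt on the log2(FPKM + 1) scale with its 95% interval from limma (horizontal axis) for 21 tested partners of Rbbp4 and Rbbp7 in complexes other than PRC2 (vertical axis, coloured by complex); filled points passed an adjusted p of 0.05. Hat1 lies below 0, and Hdac1 and Mta2 above.

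Genes that Ezh2 is known to hold back in B cells were looked up as a readout of the complex. Of 7 genes 5 were tested and none was called (limma; 2 of the 5 at an unadjusted p below 0.05). Cdkn1b, a cell cycle inhibitor, was 11.6 and 9.44 FPKM in wt, against 13.8 and 13.4 in ko (0.35 ± 0.09, adjusted p = 0.058), and Cdkn1a 1.27 and 0.94 in wt, against 1.99 and 1.64 in ko (0.42 ± 0.13, adjusted p = 0.0845). Cdkn1b passed without wt 1 (0.0343), with a filter at 5 FPKM (0.0497) and with a trend on GC content removed (0.0476). Its difference was 0.21 without wt 2 (0.154), and adjusted p was 0.159 without ko 1 and 0.141 without ko 2. Cdkn2a was 1.30 and 1.48 in wt, against 0.54 and 1.13 in ko (adjusted p = 0.173, difference -0.40, and -0.16 without ko 1). The plasma cell factors Irf4, at 15.9 and 16.4 in wt and lower in both ko libraries (difference -0.12), and Prdm1, at 2.89 and 2.94 in wt, against 3.27 and 3.42 in ko and named after its values were seen, lay on opposite sides of 0 (adjusted p = 0.172 and 0.289). In all 5 the groups did not overlap, 3 higher and 2 lower in ko, against 61.2% of all tested genes without overlap. Cdkn2a, among those lower, had a mean of 0.84 FPKM in ko and passed the filter only through wt. The count thus depends in part on the values compared.

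Developmental genes that PRC2 keeps silent outside the embryo were near 0 in both genotypes. Of 49 such genes, 39 of them Hox genes, 20 were listed, none reached a mean of 1 FPKM and none was tested. The highest value was 0.43 FPKM, for Hoxb4 in ko 1. Hoxb4 was 0.15 and 0.13 FPKM in wt, against 0.43 and 0.30 in ko. Summed over the list the level was 0.96 and 0.82 FPKM in wt, against 1.93 and 2.25 in ko, and 38 of the 49 were at 0 in each wt library and 32 in each ko library. Both ko libraries lay above both wt libraries in 11 of the 20 and below in 3, against 18.8% above among the 9852 listed genes with a mean under 1 FPKM. The share below was not computed for those genes. Some of the 11 were at 0 in both wt libraries, so they were listed only through ko, where they were high. Such values stand for few fragments each, the ko libraries were the shallower ones, and macrophage and monocyte markers were also higher in ko. The part of such cells in these values was not tested.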

How the data were processed

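Each library had its own deposited table, which holds gene ID, symbol, locus and FPKM, per the file headers. Per the submitters' processing notes, Bowtie2 2.2.9, TopHat2 2.1.1 and mm10 were used, with no role given. The quantification tool, annotation and strand setting are not stated in those sources. FPKM gives no counts, and fragment length or GC bias may remain in it.

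Tables were joined by gene ID (Python 3.11.15, pandas 2.3.3), with 0 for a gene missing from a table. Of the IDs, 99.4% matched GENCODE M21 on GRCm38, the assembly of mm10, which gave positions. Relative depth came from the commonest ratio among low values. Genotypes were compared with limma 3.58.1 (R 4.3.3), with a trend of spread on expression, on log2(FPKM + 1), fitted on all 4 libraries and checked on simulated data. The log scale understates changes of low genes. The subunits and gene lists were chosen with earlier results of these data known. Named genes were all subunits, Nsd2, called members of the related lists with up to 4 others of smallest p, the most abundant markers, and the 3 genes nearest to the subunit of smallest p. Alternatives covered pseudocount, filter, scaling, variance model, replicate block, GC content and leaving out each library. Some marker genes are not reported here.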

Additional observations from a re-analysis of the deposited data

How the results depend on the processing

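The count of PRC2 subunits called was 1 with the main settings and 0 without a filter on low values, without a trend of spread on expression, and when any one library was left out (range 0 to 0). It stayed at 1, always Rbbp7, with a pseudocount of 0.1, a filter at 5 FPKM, median-of-ratios scaling, quantile normalization, a trend on GC content removed and the replicate block. Over all genes the count was 1400, against 14 without a filter, 536 without the trend, 917 with the replicate block and 348 to 595 when a library was left out. The labels do not say that equal replicate numbers mark a shared source, and same-numbered libraries did not deviate together (correlation -0.083). With the replicate block the adjusted p of Rbbp7 was 0.0428, and Kdm6b (0.0739), Hdac1 (0.0515) and Mta2 (0.057) lost their calls. Subunits that were not called turned sign as follows. Eed was at 0.027 and Phf19 at -0.019 with the trend on GC content removed, and Rbbp4 at -0.0011 with quantile normalization. Leaving out a library gave -0.056 to 0.31 for Ezh1, -0.059 to 0.020 for Eed, -0.027 to 0.082 for Jarid2 and -0.00088 to 0.050 for Phf19. It gave -0.039 to 0.087 for Lcorl, -0.044 to 0.10 for Kdm6a and -0.082 to 0.058 for Uty, which was at 0.019 with the GC trend removed. Leaving out a library, the difference in share was 0.031 to 1.41 percentage points for Ezh1, -3.04 to -2.27 for Rbbp7, -3.22 to -1.56 for Mtf2, 1.14 to 2.2 for Phf19 and 0.417 to 1.02 for Phf1. With 2 libraries a group such shifts cannot exceed the spread, so they say nothing about stability. FPKM gives no counts, so counting error of the subunits at 8.00 FPKM or lower was not computed.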
